A study of Saccharomyces cerevisiae and Saccharomyces cerevisiae x Saccharomyces paradoxus and Saccharomyces cerevisiae x Saccharomyces mikatae with 18 samples.

Results

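The genes of leucine, isoleucine and valine biosynthesis were followed in 4 Saccharomyces species and in 3 hybrids of S. cerevisiae with the other species. They were chosen by name: 10 genes, of which 8 (ILV1, ILV2, ILV5, ILV6, LEU1, LEU2, LEU9 and the regulator LEU3) are among the 4730 genes listed, while ILV3 and LEU4 were not analysed here. RNA 3′ ends had been sequenced in 18 libraries from log-phase cultures grown in rich medium at 25 °C. There were 2 libraries of each homozygous species, S. paradoxus (CBS 432), S. mikatae (IFO 1815) and S. bayanus (CBS 7001), all diploids with no marker, 2 of each hybrid (YYM014 with S. paradoxus, YYM030 with S. mikatae and YYM015 with S. bayanus), and 6 of the S. cerevisiae homozygote YHL068. The S. cerevisiae parent of every hybrid was BY4716, which carries lys2Δ0 and an intact LEU2. The other parents were OZY361, with ade2 and ura3 mutations, JRY9175, with a HIS3 deletion, and JRY9191, with his3 and ura3 mutations. YHL068, labelled wild type, is BY4741 crossed to BY4716 and heterozygous for deletions of LYS2, LEU2, HIS3, MET15 and URA3, so that it holds 1 intact LEU2 among its 2 copies. Each group was a single strain. The study's methods call the libraries of a strain biological replicates, and p-values measure the spread between them.

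Valine and leucine share their first steps, which run in mitochondria, and isoleucine uses the same enzymes from a different precursor. Threonine deaminase opens the isoleucine branch, and acetolactate synthase, a reductoisomerase and a dehydratase carry both branches forward. Leucine then needs an isopropylmalate synthase, an isomerase and a dehydrogenase, and the intermediate isopropylmalate turns the zinc-cluster factor Leu3 into an activator. Gcn4, the factor of general amino acid control, also acts on many genes of amino acid synthesis.

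The letters these factors are known to prefer were searched in the 300 bases before the start codon, in the S. cerevisiae R64 reference. The Leu3 motif CCGGNNCCGG, which reads the same on both strands, was found in 8 of 4722 promoters (0.169%), of which LEU1, LEU2 and BAT1 are shown because they belong to the pathway. The Gcn4 motif TGACTC, searched on both strands, was found in 393 of 4722 promoters (8.32%), among them those of ILV1, ILV5, ILV6, LEU9 and LEU3. BAT1 had a Gcn4 match as well as its Leu3 match, and only the Leu3 window of BAT1 is shown. Neither motif was matched at ILV2 or at OAC1, a carrier next to the pathway. The windows below read 5′ to 3′ on the strand of the gene, with the motif in capitals, and the motifs do not overlap in those shown.
LEU1 (chrVII:478845-478884, minus strand, Leu3): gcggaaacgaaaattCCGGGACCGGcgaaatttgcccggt
LEU2 (chrIII:91111-91150, plus strand, Leu3): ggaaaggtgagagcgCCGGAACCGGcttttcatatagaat
BAT1 (chrVIII:517370-517409, plus strand, Leu3): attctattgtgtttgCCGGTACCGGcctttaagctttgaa
ILV5 (chrXII:839373-839408, minus strand, Gcn4): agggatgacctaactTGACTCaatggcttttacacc
ILV6 (chrIII:105678-105713, minus strand, Gcn4): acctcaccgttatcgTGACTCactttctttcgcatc
LEU9 (chrXV:522755-522790, plus strand, Gcn4): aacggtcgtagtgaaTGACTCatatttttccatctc
The other species' promoters were not used here.

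Expression is given as a scaled score: the deposited score of a gene, divided by the upper quartile of its library or allele and multiplied by the mean upper quartile. Deposited totals ran between 2255430 and 3336994 (median 2814418) for 12 single alleles of hybrids and between 4760197 and 6883279 (median 6025260) for 12 homozygote libraries. The 8 genes together took 0.165% to 0.572% of a total. LYS2, the check of the genotypes, was listed between 0 and 1.87 in all 6 S. cerevisiae allele columns of the hybrids, against 121 to 179.5 in the S. cerevisiae homozygotes. Each species was set against the S. cerevisiae libraries counted with it, taken from the deposited names as replicates 1 and 2 with S. paradoxus, 3 and 4 with S. mikatae and 5 and 6 with S. bayanus. Of these 6, 5 correlated best with the S. cerevisiae alleles of their own hybrid, and replicate 6 did not. The check is weak, as the correlations with the own hybrid ran only between 0.02 and 0.15. Reads were kept only where unique across both genomes of a pair. The mean S. cerevisiae homozygote level of a member moved between pairs by up to 2.97-fold (LEU2). Every listed member but ILV2 had its lowest such mean in the S. paradoxus pair, LEU9 with 170 against up to 492. Species were therefore compared with S. cerevisiae within a pair in the main fits. Fits against all 6 S. cerevisiae homozygotes and the later test of ratios between species go across pairs. Where the S. cerevisiae copy is compared between hybrids and homozygotes, the fit has the pair as a covariate, and the ranges given there run over all 3 pairs.

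**Figure D1:**
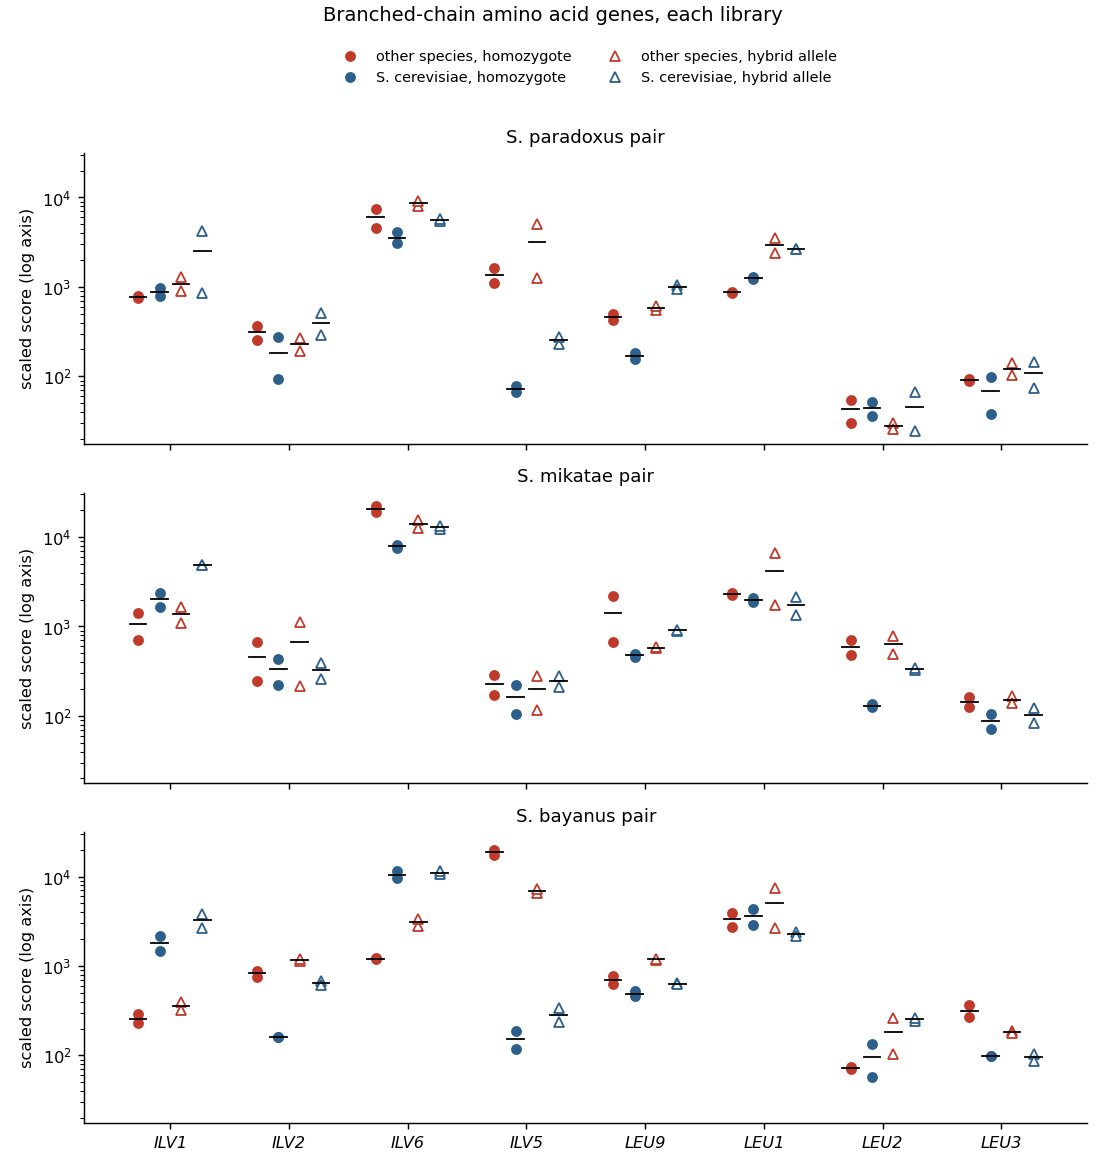
Scaled scores (log axis) of the 8 genes in every library or allele column, 1 panel for each pair of species. Points are single libraries and black lines are means of 2; ILV5 reached 17552 and 19676 in S. bayanus homozygotes, against 187 and 117 in S. cerevisiae homozygotes.

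The members did not move as a block between species. ILV5 was far higher in S. paradoxus and S. bayanus than in S. cerevisiae, ILV1 and ILV6 were lower in S. bayanus, and LEU2 and ILV6 were higher in S. mikatae. A gene was called at a Benjamini-Hochberg adjusted p under 0.05 in limma, over all genes. In S. paradoxus homozygotes 2 of 8 members were called, both higher, where 19.9% of 4588 genes were called (8.37% higher and 11.5% lower). In S. mikatae homozygotes 2 of 8 were called, both higher, where 19.6% of 4568 genes were called (8.21% higher and 11.4% lower). In S. bayanus homozygotes 5 of 8 were called, 3 higher and 2 lower, where 34.6% of 4576 genes were called (18.3% higher and 16.3% lower). Among alleles within hybrids, none of 8 was called in the S. paradoxus hybrid (5.03% of all genes, 2.46% higher and 2.57% lower). There 2 of the 8 had an unadjusted p under 0.05, beside 1253 of 4509 genes. In the S. mikatae hybrid 1 of 8 was called, lower (15.8% of all genes, 7.78% higher and 7.98% lower). Of the S. bayanus alleles 6 of 8 were called, 4 higher and 2 lower (35.4% of all genes, 18.3% higher and 17.1% lower). The median log2 ratio of the members in homozygotes was 0.64, 0.62 and 0.20 for S. paradoxus, S. mikatae and S. bayanus, beside -0.20, -0.13 and 0.02 over all genes. These medians hung on the reference. With all 6 S. cerevisiae homozygotes as the reference they were -0.006, 0.96 and 0.85, beside -0.14, -0.18 and -0.002 over all genes. In the hybrids the median of the members was -0.20, 0.35 and 0.88, beside 0.01, -0.04 and 0.04 over all genes.

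**Figure D2:**
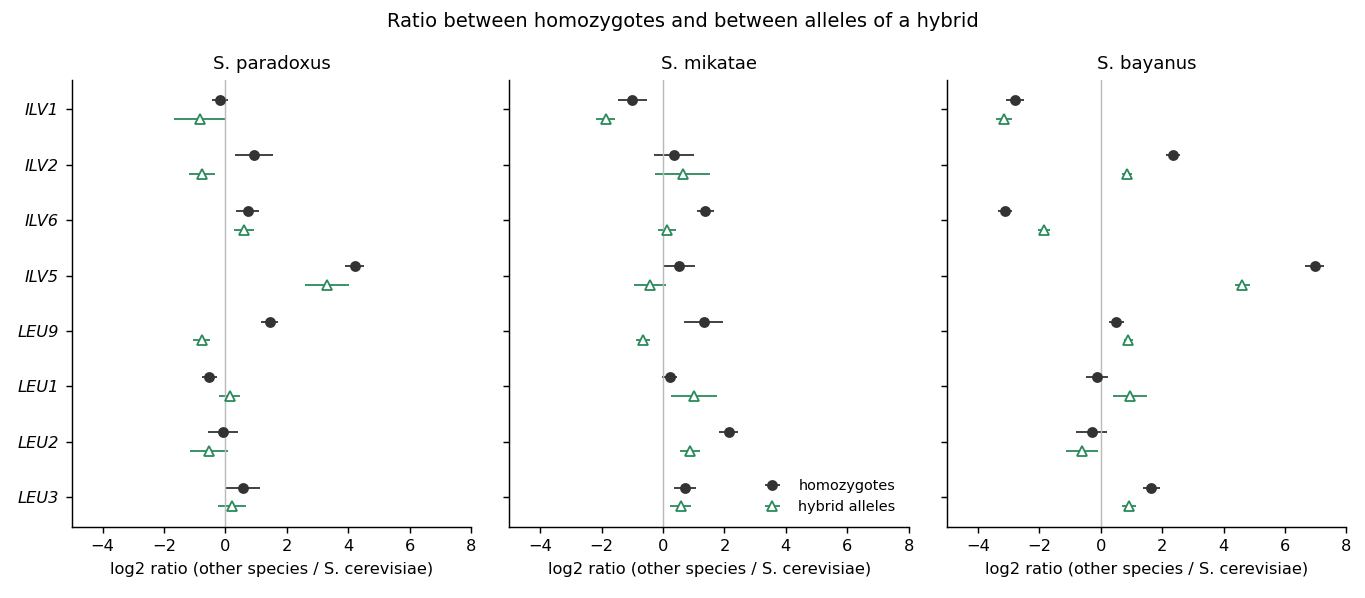
Log2 ratio of the other species over S. cerevisiae (x axis) for homozygotes (filled circles) and for alleles of a hybrid (open triangles), with bars of 1 SE. ILV5 stands at 6.96 in S. bayanus homozygotes and at 4.61 in the alleles of that hybrid.

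ILV1 (YER086W, chrV:328477-330207, plus strand in R64) encodes threonine deaminase, the first enzyme of the isoleucine branch. Its scaled scores were 288 and 230 in S. bayanus homozygotes, against 1473 and 2168 in S. cerevisiae homozygotes. Both S. bayanus libraries lay below both S. cerevisiae libraries, with a log2 ratio of -2.79 ± 0.30 (SE; limma adjusted p = 0.0105). The S. bayanus alleles had 322 and 392, against 2675 and 3793 for the S. cerevisiae alleles of the same hybrids, a log2 ratio of -3.16 ± 0.26 (limma adjusted p = 0.00811). In the S. mikatae hybrid the S. mikatae alleles had 1082 and 1641, against 4883 and 4864 for the S. cerevisiae alleles. That log2 ratio of -1.87 ± 0.31 was called (limma adjusted p = 0.0372), and it was not with the hybrid library as a block (adjusted p = 0.0826) or with the spread taken over all 12 allele columns (adjusted p = 0.0588). S. mikatae homozygotes had 1422 and 704, against 1668 and 2386 in S. cerevisiae, without overlap and without a call (limma adjusted p = 0.194). In S. paradoxus the homozygotes had 796 and 748, against 964 and 796, and the groups overlapped. The alleles of the S. paradoxus hybrid were 1281 and 893, against 852 and 4220 for S. cerevisiae. The log2 ratio of these alleles hung on 1 library, being 0.59 without replicate 2 and -2.24 without replicate 1 (limma adjusted p = 0.0353).

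Acetolactate synthase is built of the catalytic subunit ILV2 (YMR108W, chrXIII:484084-486147, plus strand) and the regulatory subunit ILV6 (YCL009C, chrIII:104619-105548, minus strand), which makes the enzyme sensitive to valine. In S. bayanus the transcripts of these subunits went opposite ways. ILV2 had 761 and 887 in S. bayanus homozygotes, against 162 and 159 in S. cerevisiae homozygotes, a log2 ratio of 2.35 ± 0.22 (limma adjusted p = 0.0100). ILV6 had 1212 and 1197 in S. bayanus homozygotes, against 9654 and 11404 in S. cerevisiae homozygotes, a log2 ratio of -3.12 ± 0.23 (limma adjusted p = 0.00995). The groups were apart for both genes. The alleles of the S. bayanus hybrid had the same directions: ILV2 had 1127 and 1196 on S. bayanus alleles, against 672 and 608 on S. cerevisiae alleles (log2 ratio 0.86 ± 0.16, limma adjusted p = 0.0278), and ILV6 had 2823 and 3320, against 10686 and 11428 (log2 ratio -1.85 ± 0.19, limma adjusted p = 0.00998). With the hybrid library as a block the ILV6 call held (adjusted p = 0.0330) and the ILV2 call did not (adjusted p = 0.0666). With the spread over all 12 allele columns the ILV2 adjusted p was 0.352.

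In S. mikatae homozygotes ILV6 was higher, with 18953 and 22149.9, against 8176 and 7579 in S. cerevisiae homozygotes, a log2 ratio of 1.38 ± 0.26 (limma adjusted p = 0.0413). Scaled by the total score, it was 1.04 and no longer called (adjusted p = 0.0600). The alleles of that hybrid overlapped, at 12616 and 15562 for S. mikatae and 12364 and 13333 for S. cerevisiae. ILV6 had the highest mean of the 8 members in both S. cerevisiae groups of every pair. In S. paradoxus ILV6 had 7381 and 4606 in homozygotes, against 4061 and 3075 (limma adjusted p = 0.236), and 8099 and 9125 on S. paradoxus alleles, against 5498 and 5794 (limma adjusted p = 0.283). Neither group pair overlapped and neither was called. ILV2 was not called in S. paradoxus or S. mikatae, where its replicates lay up to 2.39 apart on the log2 scale (216 and 1133 on S. mikatae alleles, against 256 and 392 on S. cerevisiae alleles). S. mikatae homozygotes had 245 and 669 for ILV2, against 437 and 225 in S. cerevisiae. S. paradoxus homozygotes had 367 and 257 for ILV2, against 93.4 and 276, and S. paradoxus alleles had 192 and 267, against 292 and 508.

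ILV5 (YLR355C, chrXII:838066-839253, minus strand) encodes the reductoisomerase, a mitochondrial enzyme also known for its part in the stability of mitochondrial DNA. In S. paradoxus and S. bayanus its ratio was farthest from 0 among the members, in homozygotes and alleles alike, and in S. mikatae it was not. S. bayanus homozygotes had 17552 and 19676, against 187 and 117 in S. cerevisiae homozygotes, a log2 ratio of 6.96 ± 0.31, or 125-fold (limma adjusted p = 0.00844). S. bayanus alleles had 6521 and 7284, against 336 and 235 for the S. cerevisiae alleles beside them, a log2 ratio of 4.61 ± 0.25, or 24.4-fold (limma adjusted p = 0.00697). The allele call held in all 10 alternatives tried, the hybrid library as a block among them (adjusted p = 0.0320).

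In S. paradoxus ILV5 had 1105 and 1617 in homozygotes, against 66.2 and 77.1 in S. cerevisiae homozygotes. The log2 ratio was 4.21 ± 0.32 (limma adjusted p = 0.0219). S. paradoxus alleles had 5052 and 1248, against 229.8 and 276 on S. cerevisiae alleles, so that both S. paradoxus values lay above both S. cerevisiae values. That log2 ratio of 3.31 ± 0.73 missed the threshold (limma adjusted p = 0.0765; 0.141 with the hybrid library as a block) and passed it in 3 of 10 alternatives. It was 2.18 without hybrid replicate 1 (adjusted p = 0.104) and 4.45 without hybrid replicate 2 (0.0186), and it was also called with 1 library size for both alleles (0.0415) and with the spread over all 12 allele columns (0.0102). S. mikatae did not share the difference: its homozygotes had 171 and 284, against 106 and 219.6, and its alleles 280.5 and 115, against 209 and 278, with overlap in both. Put as a share of a hybrid library's ILV5 score, the S. paradoxus allele held 95.6% and 86.0%, the S. mikatae allele 60.3% and 31.3%, and the S. bayanus allele 94.8% and 96.7%. By this score of filtered 3′ ends, the gene ranked in the middle or below on S. cerevisiae chromosomes. The mean in homozygotes stood at percentile 16.6 to 40.6 of all genes by pair, while S. bayanus homozygotes stood at percentile 99.2. Of the 300 positions after the S. cerevisiae ILV5 stop codon, 20.7% had at least 10 adenines in a window of 20 bases (percentile 74.7 of genes). Whether the filtering or mapping of reads has a part in the ILV5 differences was not tested.

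The leucine branch opens with isopropylmalate synthase, made by the paralogs LEU4 and LEU9 (LEU9: YOR108W, chrXV:523027-524841, plus strand), and only LEU9 was analysed here. Reads that the paralogs share would have been dropped by the unique mapping. S. paradoxus homozygotes had 427 and 504, against 183 and 156 in S. cerevisiae homozygotes, a log2 ratio of 1.45 ± 0.28 (limma adjusted p = 0.0386). It became 0.44 (adjusted p = 0.583) when set against all 6 S. cerevisiae homozygotes. In the S. paradoxus hybrid the direction was the other way, with 552 and 614 on S. paradoxus alleles, against 1038 and 954 on S. cerevisiae alleles (log2 ratio -0.77 ± 0.27, limma adjusted p = 0.163). The homozygote log2 ratio minus the allele log2 ratio was 2.22 ± 0.37, just short of the threshold (limma adjusted p = 0.0541; 0.0486 with median-of-ratios scaling). In S. mikatae neither ratio of LEU9 was called, nor their difference. Homozygotes had 663 and 2163, against 460.0 and 498 (log2 ratio 1.32 ± 0.64, limma adjusted p = 0.210), a ratio of 0.47 without S. mikatae replicate 2 and 2.17 without S. mikatae replicate 1. The S. mikatae alleles had 568 and 584, against 897 and 915 (log2 ratio -0.65 ± 0.22, limma adjusted p = 0.119). With the spread over all 12 allele columns LEU9 was called lower on the S. paradoxus and S. mikatae alleles (adjusted p = 0.0305 and 0.0397). In the S. bayanus hybrid LEU9 was higher on the S. bayanus alleles, with 1173 and 1194, against 647 and 625 on S. cerevisiae alleles (log2 ratio 0.90 ± 0.15, limma adjusted p = 0.0227; 0.0594 with the hybrid library as a block). S. bayanus homozygotes had 774 and 633, against 527 and 457, without a call (limma adjusted p = 0.162).

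LEU1 (YGL009C, chrVII:476313-478652, minus strand), the isopropylmalate isomerase, was not called between species in any pair. S. paradoxus homozygotes had 885 and 856, against 1275 and 1220.2 in S. cerevisiae, apart but without a call (log2 ratio -0.52 ± 0.25, limma adjusted p = 0.206). S. mikatae homozygotes had 2355 and 2233, against 1863 and 2105, and S. bayanus homozygotes had 3924 and 2732, against 2876 and 4382. On hybrid alleles LEU1 varied widely between libraries: S. mikatae alleles had 6566 and 1749.5, against 2130 and 1344 on S. cerevisiae alleles, and S. bayanus alleles had 7463 and 2649, against 2404 and 2186. S. paradoxus alleles had 2382 and 3541, against 2648 and 2629.7. The log2 ratios of these alleles were 1.00 ± 0.74, 0.96 ± 0.57 and 0.14 ± 0.34 for S. mikatae, S. bayanus and S. paradoxus.

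LEU2 (YCL018W, chrIII:91324-92418, plus strand) encodes isopropylmalate dehydrogenase and is deleted on 1 of 2 copies in the S. cerevisiae homozygote. S. mikatae homozygotes had 479 and 698, against 124 and 137 in S. cerevisiae homozygotes, a log2 ratio of 2.14 ± 0.31 (limma adjusted p = 0.0276). The species difference and the missing copy cannot be told apart here. In the hybrid, where the S. cerevisiae copy is intact, S. mikatae alleles had 775 and 489.7, against 323 and 347 on S. cerevisiae alleles. These did not overlap, and the log2 ratio of 0.88 ± 0.32 was not called (limma adjusted p = 0.138). The homozygote log2 ratio minus the allele log2 ratio was not called for LEU2 in any pair. In S. bayanus homozygotes LEU2 had 73.5 and 70.1, against 58.0 and 134, and on S. bayanus alleles 105 and 263, against 243 and 265. In the S. paradoxus pair LEU2 was low everywhere, with 55.1 and 30.3 in S. paradoxus homozygotes, against 52.3 and 35.8 in S. cerevisiae, and 30.5 and 25.6 on S. paradoxus alleles, against 67.2 and 24.7. In those 4 libraries and their alleles the groups overlapped. The authors had removed reads next to runs of adenines. Of the 300 positions after the S. cerevisiae LEU2 stop codon, 35.3% had at least 10 adenines in a window of 20 bases, where the median gene had 13.7% and ILV5 had 20.7%. A part of this filter in the LEU2 values was not tested. The mean of the S. cerevisiae LEU2 alleles was 46.0, 335 and 254 in the hybrids with S. paradoxus, S. mikatae and S. bayanus.

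LEU3 (YLR451W, chrXII:1036093-1038753, plus strand), the regulator, was among the lowest members. S. bayanus homozygotes had 362 and 266, against 98.9 and 97.3 in S. cerevisiae homozygotes, a log2 ratio of 1.65 ± 0.28 (limma adjusted p = 0.0205). S. bayanus alleles had 186 and 179, against 104 and 87.7, a log2 ratio of 0.93 ± 0.23 at the edge of the threshold (limma adjusted p = 0.0478; 0.0931 with the hybrid library as a block), and it was called in 2 of the 10 alternatives. S. mikatae homozygotes had 127 and 163, against 71.3 and 106, and S. mikatae alleles 167 and 138, against 83.9 and 123, apart and not called (limma adjusted p = 0.218 and 0.282). S. paradoxus homozygotes had 87.9 and 94.6, against 99.7 and 37.9, and S. paradoxus alleles 139.7 and 102, against 74.3 and 144, with overlap.

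Leaving out single libraries changed most calls in homozygotes. Without any 1 of the 4 libraries of the comparison, no gene was called by limma in S. paradoxus (1094 to 1909 genes at unadjusted p under 0.05) or in S. mikatae (1338 to 1571). In S. bayanus no gene was called without either S. bayanus library (1716 and 1738), while 742 and 709 were called without S. cerevisiae homozygote replicate 5 or 6, ILV1, ILV2, ILV5 and ILV6 among them. The called members kept their sign, with ratios between 3.93 and 4.48 for ILV5 (adjusted p 0.0522 to 0.151) and between 1.33 and 1.57 for LEU9 (0.0672 to 0.197) in S. paradoxus, and between 1.87 and 2.41 for LEU2 (0.0648 to 0.128) and between 1.27 and 1.49 for ILV6 (0.0924 to 0.160) in S. mikatae. In S. bayanus ILV5 stayed between 6.63 and 7.29 (adjusted p 0.0421 to 0.0699), ILV6 between -3.24 and -3.00 (0.0421 to 0.0699) and ILV1 between -3.07 and -2.51 (0.0421 to 0.0721). Members that were not called moved more, such as LEU9 in S. mikatae (0.47 to 2.17) and ILV2 in S. paradoxus (0.16 to 1.71). In S. bayanus ILV2 stayed between 2.24 and 2.46 (adjusted p 0.0423 to 0.0699) and LEU3 between 1.43 and 1.87 (0.0668 to 0.0883). Among hybrid alleles, with the spread pooled over all hybrids, ILV5 and ILV6 of S. bayanus were called without either library (adjusted p 0.0268 to 0.0377 and 0.0242 to 0.0305). ILV1 (0.0804 to 0.0954), ILV2 (0.592 to 0.693), LEU9 (0.114 to 0.136) and LEU3 (0.308 to 0.397) of S. bayanus and ILV1 of S. mikatae (0.215 to 0.348) were not.

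In a test of the ratios between species, added after the values were seen, 14 of 48 member differences were called. Between homozygotes these were 1 of 8 for S. mikatae minus S. paradoxus (14.9% of all genes), 3 of 8 for S. bayanus minus S. paradoxus (27.9%) and 4 of 8 for S. bayanus minus S. mikatae (21.4%). Between alleles they were 1 of 8 (10.8%), 2 of 8 (18.1%) and 3 of 8 (18.9%) in the same order, and the values are in the closing section.

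The difference between the homozygote ratio and the allele ratio asks whether a species difference persists when both copies share a nucleus. The homozygotes also differ from the parents of the hybrids in strain genotype, as given above. In this difference the shared nucleus and the strain genotype therefore cannot be told apart. No member was called by limma in any pair. The differences ran between -0.66 and 2.22 in S. paradoxus, between -0.79 and 1.98 in S. mikatae and between -1.27 and 2.35 in S. bayanus, where 0.808% (0.284% higher and 0.524% lower), 0.109% (0.0219% and 0.0876%) and 1.84% (1.25% and 0.59%) of all genes were called. At unadjusted p under 0.05 there was 1 member in S. paradoxus, 3 in S. mikatae and 3 in S. bayanus. Over all genes that threshold was passed by 926 of 4582, 638 of 4567 and 845 of 4575 genes, in the same order. For S. bayanus, ILV5 (2.35 ± 0.42) and ILV2 (1.49 ± 0.26) stood at the threshold, each with a limma adjusted p of 0.0505, and at 0.0490 when genes under a mean of 50 were left out. The S. mikatae member with the lowest adjusted p was ILV6 (1.25 ± 0.36, limma adjusted p = 0.212).

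The S. cerevisiae copy itself was then compared between hybrids and homozygotes, with the pair as a covariate. All 8 log2 ratios were above 0, with a median of 1.00 beside -0.05 over all genes, although LEU1 was -0.080 when scaled by the total score. Within single pairs some members went the other way: the mean of LEU1 on alleles was 0.632 times that in homozygotes in the S. bayanus pair, without overlap, and 0.875 times in the S. mikatae pair, and ILV2 in the S. mikatae pair (0.978) and LEU3 in the S. bayanus pair (0.977) were near 1. Over all pairs 2 of 8 members were called, both higher, where 14.3% of 4553 genes were called, 5.38% higher and 8.94% lower. LEU9 had a lowest, median and highest of 625, 906 and 1038 on the 6 S. cerevisiae alleles in hybrids, against 156, 459 and 527 in the 6 homozygotes, without overlap. Its log2 ratio was 1.28 ± 0.31 (limma adjusted p = 0.0206; 0.0511 without S. cerevisiae homozygote replicate 1). By pair the mean on alleles was 5.86, 1.89 and 1.29 times that in homozygotes for S. paradoxus, S. mikatae and S. bayanus. ILV5 had 209, 255 and 336 on alleles, against 66.2, 112 and 219.6 in homozygotes, which overlapped at the edges. Its log2 ratio of 1.13 ± 0.26 (limma adjusted p = 0.0185) was called in all 18 alternatives.

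The other members of this comparison missed the threshold. ILV1 had 852, 4006 and 4883 on alleles, against 796, 1571 and 2386 in homozygotes (log2 ratio 1.08 ± 0.34, limma adjusted p = 0.0561; 0.0467 with median-of-ratios scaling and 0.0103 without S. cerevisiae x S. paradoxus hybrid replicate 1). ILV2 (1.09 ± 0.38, 0.0781; 0.0360 without S. cerevisiae homozygote replicate 3) and ILV6 (0.49 ± 0.16, 0.0706) were near it. LEU3 (0.31 ± 0.28, 0.499) and LEU1 (0.07 ± 0.28, 0.884) were not. LEU2 had 24.7, 254 and 347 on alleles, against 35.8, 91.2 and 137 in homozygotes. The mean of LEU2 on alleles was 2.56 and 2.64 times that in homozygotes in the S. mikatae and S. bayanus pairs, without overlap in either, and 1.04 times in the S. paradoxus pair. Over all pairs its log2 ratio was 0.93 ± 0.35 (limma adjusted p = 0.100; 0.0160 without S. cerevisiae x S. paradoxus hybrid replicate 2). For LEU2 the hybrid state and the missing copy of the homozygote cannot be told apart. The hybrid copy came from BY4716, while YHL068 carries the heterozygous deletions given above. For every gene of this comparison, LEU9 and ILV5 included, the hybrid state and the strain genotype therefore cannot be told apart.

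**Figure D3:**
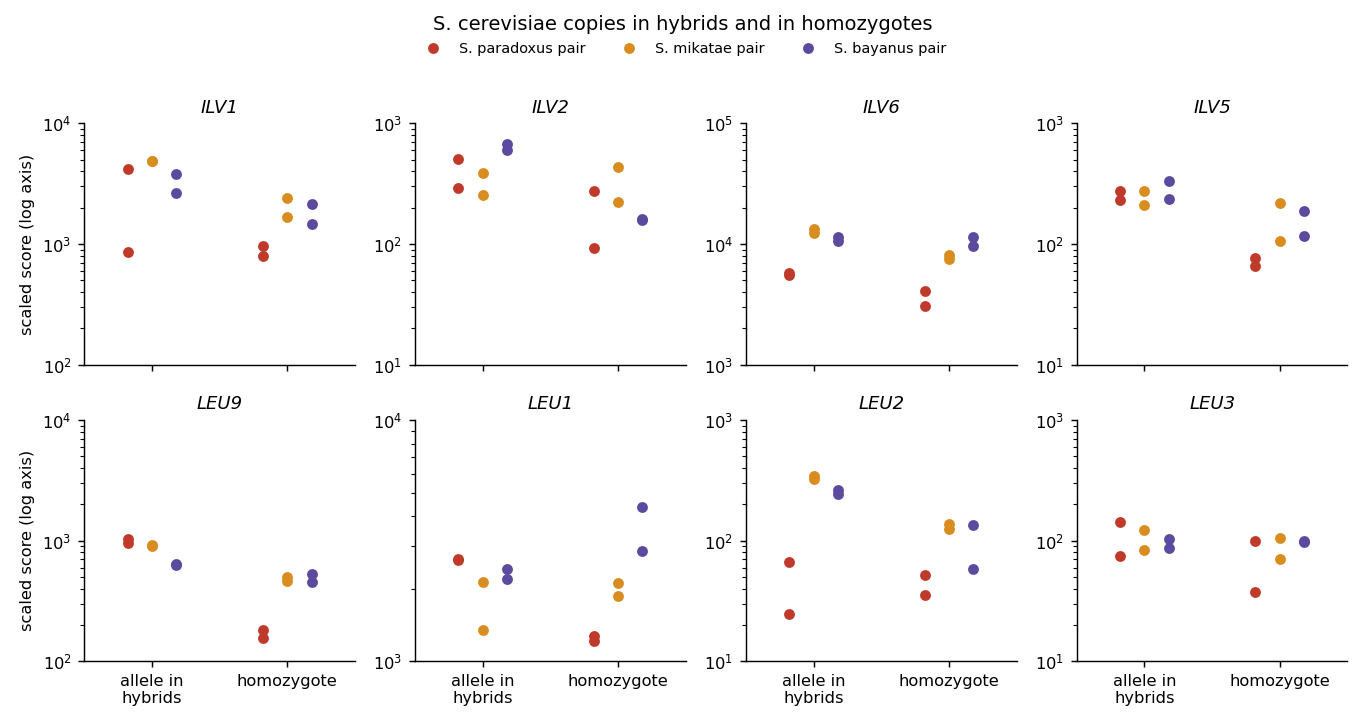
Scaled scores (log axis, range set for each gene) of the S. cerevisiae copy on hybrid alleles and in homozygotes, coloured by the pair of species; each point is 1 library. All 6 LEU9 allele values, from 625 to 1038, lie above all 6 homozygote values, which end at 527.

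Next to the pathway stand the mitochondrial aminotransferase BAT1 (YHR208W) and OAC1 (YKL120W), a carrier of the inner mitochondrial membrane that takes oxaloacetate and isopropylmalate. OAC1 was called lower on the other species' allele in each of 3 hybrids, and the call held in all 10 alternatives only in S. bayanus. It had 34.0 and 41.5 on S. paradoxus alleles, against 214 and 178 on S. cerevisiae alleles (log2 ratio -2.35 ± 0.35, limma adjusted p = 0.0451; 0.119 with the hybrid library as a block, and 0.161 and 0.101 without hybrid replicate 1 or 2). S. mikatae alleles had 72.6 and 27.6, against 300.3 and 477 (-3.05 ± 0.59, limma adjusted p = 0.0454; 0.0979 with the block), a ratio of -4.06 without hybrid replicate 1 and -2.03 without hybrid replicate 2 (adjusted p = 0.0108 and 0.0572). S. bayanus alleles had 7.39 and 11.4, against 271 and 183 (-4.46 ± 0.40, limma adjusted p = 0.00831; 0.0328 with the block). The S. bayanus values are near the floor, from deposited scores of 5 and 7, against 195 and 119, so the size of this ratio is uncertain.

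In homozygotes OAC1 was not called. It had 187 and 196 in S. paradoxus, against 262 and 215, and 554 and 253 in S. mikatae, against 319 and 318. In S. bayanus it had 93.7 and 59.2, against 203 and 761 (log2 ratio -2.38 ± 0.74, limma adjusted p = 0.0754). Without S. cerevisiae homozygote replicate 5 that ratio was -3.33 (adjusted p = 0.0425) and without replicate 6 it was -1.43 (0.129), and it was called against all 6 S. cerevisiae homozygotes (-2.04, 0.0112) and in 1 fit over all 12 homozygote libraries (0.0147). The homozygote ratio of OAC1 minus its allele ratio was 2.04 ± 0.42, 3.28 ± 0.82 and 2.07 ± 0.93 in S. paradoxus, S. mikatae and S. bayanus, none called (limma adjusted p = 0.0790, 0.166 and 0.307). BAT1 was higher in S. paradoxus homozygotes, with 1302 and 1947, against 548 and 461 in S. cerevisiae homozygotes (log2 ratio 1.66 ± 0.33, limma adjusted p = 0.0404). Without 1 of those 4 libraries its adjusted p was 0.0567 to 0.195. BAT1 was called in no other comparison, and S. bayanus homozygotes had 915 and 767, against 893 and 765.

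Of the 5 genes that supply threonine, from which isoleucine is made, none was called in S. paradoxus. In S. mikatae homozygotes 1 of 5 was called, beside 19.6% of all genes: THR4, the threonine synthase, was higher (log2 ratio 1.77 ± 0.23, limma adjusted p = 0.0245; 0.0718 against all 6 S. cerevisiae homozygotes). None was called between the S. mikatae alleles. In S. bayanus homozygotes 4 of 5 were called, beside 34.6% of all genes, with a median log2 ratio of -2.31 beside 0.02 over all genes. HOM3, the aspartate kinase, was higher (2.18 ± 0.24), and HOM6 (-2.35 ± 0.25), THR1 (-2.31 ± 0.28) and THR4 (-4.07 ± 0.49) were lower. Against all 6 S. cerevisiae homozygotes HOM3 was 1.52 (limma adjusted p = 0.151) and THR1 was -1.64 (0.158), and HOM3 was also not called in 1 fit over all 12 homozygote libraries (0.0945). HOM6 (-2.43 ± 0.18) and THR4 (-3.62 ± 0.27) were also lower on the S. bayanus alleles, 2 of 5 beside 35.4% of all genes.

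Of the 5 regulators and related genes, 1 was called in S. paradoxus homozygotes, beside 19.9% of all genes: GDH1, a glutamate dehydrogenase that Leu3 is known to act on, was higher (1.44 ± 0.31, limma adjusted p = 0.0448; 0.0619 when scaled by the total score). In S. mikatae homozygotes 3 of 5 were higher, beside 8.21% of all genes: CHA4, an activator of serine and threonine breakdown (5.91 ± 1.12), the centromere and promoter factor CBF1 (2.04 ± 0.31) and GDH1 (1.59 ± 0.25). The CHA4 ratio (limma adjusted p = 0.0405) ran between 4.77 and 7.05 without 1 library. On S. mikatae alleles 2 of 5 were higher, beside 7.78% of all genes: CHA4 (5.33 ± 0.31) and CBF1 (3.68 ± 0.41), both short of the threshold with the hybrid library as a block (adjusted p = 0.0755 each). In S. bayanus homozygotes 3 of 5 were called, beside 34.6% of all genes: CHA4 (4.01 ± 0.55) and CBF1 (2.11 ± 0.25) were higher and GDH1 (-2.95 ± 0.44) was lower. On S. bayanus alleles 4 of 5 were called, beside 35.4% of all genes: CHA4 (4.76 ± 0.25) and CBF1 (2.88 ± 0.41) were higher, and GCN4 (-2.56 ± 0.18) and GDH1 (-4.49 ± 0.32) were lower. No regulator was called between the alleles of the S. paradoxus hybrid. On S. cerevisiae alleles against homozygotes 2 of 5 were called, beside 14.3% of all genes. GDH1 was higher (1.30 ± 0.19, limma adjusted p = 0.0019), and it was called in all 18 alternatives. GCN2, the kinase upstream of Gcn4, was lower (-0.60 ± 0.17, limma adjusted p = 0.0438) and was called in 6 of 18 alternatives, missing the threshold with median-of-ratios scaling (0.0693) and without any 1 library (up to 0.0943) other than S. cerevisiae homozygote replicate 6.

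As a description across all 24 columns, the members were not close to one pattern. The correlation of a member with the mean centred profile of the members, of which it is a part, ran between -0.03 for ILV1 and 0.84 for LEU9. The 5 other genes most like that mean profile were NSR1 (Pearson r = 0.90), URA3 (0.88), TPA1 (0.87), NOG1 (0.86) and IPI3 (0.86). The 24 points share strains, genome pairs and, for alleles, libraries, and URA3 is deleted on 1 of 2 copies in the S. cerevisiae homozygote, as LEU2 is. URA3 is also mutated in the hybrid parents OZY361 and JRY9191.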

How the data were processed

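Per the labels and the study's methods, the authors called bases with CASAVA 1.7, mapped 3′-end reads to both genomes of a pair with Bowtie 0.12.7, kept unique hits, removed reads likely to come from internal priming, weighted reads for GC content by full-quantile normalization within a lane and summed them per gene. The deposited score is this sum, rounded, with no scaling between libraries, so it is no read count and has no counting interval. A gene's feature ran 50 bases upstream to 500 bases downstream of the reading frame, trimmed at neighbours. Here scores were scaled by the upper quartile (percentile 75), genes with a mean of at least 10 were kept, and log2 of the scaled score plus 1 was fitted in limma 3.58.1 (R 4.3.3) with a trend, which was tested on simulated data. Tables were made in Python 3.11.15 with pandas 2.3.3.

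The members and lists were chosen with earlier results of these data known. All 8 listed members are named; a gene of the other lists is named where called and its groups do not overlap, BAT1 and OAC1 always. Alleles of a hybrid come from 1 library, which pairs them; across genes their replicate differences correlated at 0.06, 0.01 and 0.03 (S. paradoxus, S. mikatae, S. bayanus). Alternatives changed the scaling, the constant, the filter, the reference, the block and the libraries. R64 names matched 4722 of 4730 genes.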

Additional observations from a re-analysis of the deposited data

Results flagged for a closer look

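The ratio to S. cerevisiae was compared between species by a limma test chosen after the values were seen, and the results below are those in which the ratio of a member differed between species at an adjusted p under 0.05. They were not recomputed under the alternatives, and each species was set against its own S. cerevisiae libraries or alleles. Between homozygotes, 14.9% of 4610 genes differed for S. mikatae minus S. paradoxus, 27.9% for S. bayanus minus S. paradoxus and 21.4% for S. bayanus minus S. mikatae. The log2 difference of ILV5 was -3.68 ± 0.60 (SE; limma adjusted p = 0.00715) for S. mikatae minus S. paradoxus, 2.76 ± 0.60 (0.0108) for S. bayanus minus S. paradoxus and 6.43 ± 0.60 (0.000586) for S. bayanus minus S. mikatae. ILV6 was -3.84 ± 0.42 for S. bayanus minus S. paradoxus (limma adjusted p = 0.000724) and -4.50 ± 0.42 for S. bayanus minus S. mikatae (0.000542). ILV1 was -2.61 ± 0.53 for S. bayanus minus S. paradoxus (limma adjusted p = 0.00793) and -1.80 ± 0.53 for S. bayanus minus S. mikatae (0.0439). LEU2 was -2.43 ± 0.66 for S. bayanus minus S. mikatae (limma adjusted p = 0.0331).

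Between alleles, 10.8% of 4572 genes differed for S. mikatae minus S. paradoxus, 18.1% for S. bayanus minus S. paradoxus and 18.9% for S. bayanus minus S. mikatae. ILV5 was -3.73 ± 0.89 for S. mikatae minus S. paradoxus (limma adjusted p = 0.0333) and 5.03 ± 0.89 for S. bayanus minus S. mikatae (0.00674). ILV6 was -2.46 ± 0.33 for S. bayanus minus S. paradoxus (limma adjusted p = 0.00230) and -1.98 ± 0.33 for S. bayanus minus S. mikatae (0.00508). LEU9 was 1.67 ± 0.28 for S. bayanus minus S. paradoxus (limma adjusted p = 0.00585) and 1.55 ± 0.28 for S. bayanus minus S. mikatae (0.00719).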

How the results depend on the processing

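The cause was not tested for any change below unless stated. The number of genes called by limma between S. paradoxus homozygotes and S. cerevisiae was 911, and 337 with the shared replicate number as a block, which is only a number there; among the named genes it ended the calls of LEU9 (adjusted p = 0.0846), BAT1 (0.0798), ARO10 (0.0748), PDC1 (0.0792) and GDH1 (0.0908). With the hybrid library as a block, 0 genes were called in place of 227 between S. paradoxus alleles (1187 at unadjusted p under 0.05) and 0 in place of 715 between S. mikatae alleles (1533), with fewer residual degrees of freedom by construction; the difference of ratios gave 15 in place of 37 for S. paradoxus, 0 in place of 5 for S. mikatae (622 unadjusted) and 39 in place of 84 for S. bayanus. Of the members' allele calls the hybrid-library block ended ILV1 in S. mikatae and ILV2, LEU9 and LEU3 in S. bayanus, and no other. With 1 fit over all 12 allele columns the S. paradoxus and S. mikatae alleles gave 775 and 1205 calls, and 1 fit over all 12 homozygote libraries or all 6 S. cerevisiae references gave 1368 and 1484 for S. mikatae homozygotes in place of 894.

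For the difference of ratios, scaling by the total score gave 60 calls in S. paradoxus and 11 in S. mikatae, a constant of 5 gave 8 in S. mikatae, and a minimum of 50 gave 24 in S. paradoxus, 0 in S. mikatae (589 unadjusted) and 127 in S. bayanus. Median-of-ratios scaling and no filter each gave 0 in S. mikatae (624 and 662 unadjusted). Without 1 library, with fewer samples by construction, homozygote calls ran from 0 to 0 in S. paradoxus and S. mikatae and from 0 to 742 in S. bayanus. S. bayanus alleles gave 596 to 626 with the spread pooled over all hybrids, in place of 1606, or 1535 with both libraries and the pooled spread, and the difference of ratios gave 0 to 22 in S. paradoxus, 0 to 0 in S. mikatae and 0 to 47 in S. bayanus (511 to 752 unadjusted where 0 were called). S. cerevisiae alleles against homozygotes gave 418 to 584 in place of 652, 418 being without homozygote replicate 2.

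Scaling moved the median log2 ratio of all genes in S. paradoxus homozygotes to -0.01 (median of ratios) or -0.46 (total) in place of -0.20, and the split of calls to 482 higher and 428 lower, or 290 and 729, in place of 384 and 527. In S. mikatae homozygotes the total gave 272 and 778 in place of 375 and 519, and in the S. cerevisiae comparison 140 and 564 in place of 245 and 407. With 1 library size for both alleles, S. paradoxus alleles split into 165 and 114 in place of 111 and 116. For the difference of ratios in S. paradoxus the split was 19 and 23, or 10 and 50, in place of 13 and 24.

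No called member changed sign. Log2 ratios that were not called changed sign as follows. In homozygotes, median-of-ratios scaling gave 0.0081 for ILV1 and 0.11 for LEU2 in S. paradoxus and -0.037 for BAT1 in S. bayanus; the total gave -0.13 for LEU1, -0.25 for BAT1 and -0.11 for OAC1 in S. mikatae and -0.0028 for BAT1 in S. bayanus; all 6 references gave -0.19 for ILV6 in S. paradoxus and 0.67 for LEU1 in S. bayanus. PDC1, called higher in S. paradoxus homozygotes, was -0.50 with all 6 references. In the S. cerevisiae comparison the total gave -0.080 for LEU1. Without 1 library, S. paradoxus homozygote ratios ran from -0.50 to 0.34 for LEU2 and -0.13 to 1.25 for LEU3, and allele ratios from -2.24 to 0.59 for ILV1, -0.15 to 0.43 for LEU1, -1.12 to 0.048 for LEU2 and -0.48 to 0.90 for LEU3. S. mikatae homozygote ratios ran from -0.35 to 1.09 for ILV2 and -0.33 to 0.80 for OAC1, and allele ratios from -0.24 to 1.53 for ILV2 and -1.26 to 0.42 for ILV5. S. bayanus homozygote ratios ran from -0.42 to 0.19 for LEU1, -0.89 to 0.30 for LEU2 and -0.11 to 0.15 for BAT1. In the S. cerevisiae comparison LEU1 ran from -0.060 to 0.24 and OAC1 from -0.45 to 0.021. The pooled spread for hybrids without 1 library was chosen after the data were seen. Precision is limited by 2 libraries a group.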

Other observations

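Of 5 permeases that bring in branched-chain and related amino acids, none was called in S. paradoxus. In S. mikatae homozygotes 2 of 5 were called, beside 19.6% of all genes: BAP2 (log2 ratio -1.62 ± 0.26 SE) and TAT1 (-1.61 ± 0.28) were lower. BAP2 was the 1 permease called on the S. mikatae alleles, beside 15.8% of all genes, and was lower (-1.42 ± 0.24, limma adjusted p = 0.0372; 0.0869 with the hybrid library as a block). In S. bayanus homozygotes 3 of 5 were called, beside 34.6% of all genes. AGP1 was higher (0.96 ± 0.22, limma adjusted p = 0.0387; 0.0598 against all 6 S. cerevisiae homozygotes and 0.0639 in 1 fit over all 12 homozygote libraries), and GNP1 (-2.92 ± 0.32) and TAT1 (-1.04 ± 0.22) were lower. On S. bayanus alleles 3 of 5 were called, beside 35.4% of all genes. AGP1 was higher (1.33 ± 0.26), and GNP1 (-2.46 ± 0.39) and BAP3 (-1.12 ± 0.23) were lower. Without 1 hybrid library AGP1 (adjusted p 0.134 to 0.226) and BAP3 (0.212 to 0.282) were not called.

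Of 5 genes of breakdown, 2 were called in S. paradoxus homozygotes, both higher, beside 8.37% of all genes. None was called in S. mikatae or S. bayanus homozygotes. On the S. paradoxus, S. mikatae and S. bayanus alleles 1, 1 and 2 of 5 were called, all lower, beside 2.57%, 7.98% and 17.1% of all genes. PDC5, a pyruvate decarboxylase with the close paralog PDC1, was lower on the other species' allele in all 3 hybrids. Its log2 ratio was -2.34 ± 0.28 in the S. paradoxus hybrid (limma adjusted p = 0.0400; 0.119 with the hybrid library as a block), -2.17 ± 0.25 in the S. mikatae hybrid (0.0264; 0.0755) and -1.48 ± 0.26 in the S. bayanus hybrid (0.0234; 0.0488). Of the 22 genes in the lists outside the members, PDC5 was the only 1 whose homozygote ratio minus allele ratio was called. That call was in S. paradoxus (3.01 ± 0.44, limma adjusted p = 0.0453, or 0.0854 with the block), beside 0.808% of all genes. PDC5 was singled out after its value was seen. ARO10, a decarboxylase of the Ehrlich pathway, was higher in S. paradoxus homozygotes, with 79.3 and 39.2, against 9.06 and 7.01 (2.66 ± 0.58, limma adjusted p = 0.0473). It was called in 3 of 11 alternatives, being 1.53 (0.233) against all 6 S. cerevisiae homozygotes, and missing the threshold in 1 fit over all 12 homozygote libraries (0.145) and with the total score (0.0509). It was lower on S. bayanus alleles, with 5.92 and 6.50, against 22.2 and 23.1 (-1.71 ± 0.40, limma adjusted p = 0.0434; 0.109 with the block). PDC1 was higher in S. paradoxus homozygotes (1.54 ± 0.34, limma adjusted p = 0.0491), was called in 4 of 12 alternatives and was -0.50 against all 6 S. cerevisiae homozygotes.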
